A study of Homo sapiens with 6 samples.

Results

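The replication-dependent histone genes supply the core and linker histones that package newly made DNA. They were taken as the protein-coding genes of GENCODE release 44 on chromosomes 1 and 6 whose symbol begins with H1-, H2AC, H2BC, H3C or H4C, which gave 68 of the 20033 protein-coding genes on the assembled chromosomes. Of these, 6 encode linker histone H1, 17 encode H2A, 18 encode H2B, 13 encode H3 and 14 encode H4. The rule uses gene symbols and no measured value.

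Accessible chromatin was profiled by ATAC-seq, in which a transposase cuts and tags open DNA, in MCF10A, a line of human breast epithelium that does not form tumours. The cells stood for 30 min in phosphate-free buffered saline (HHBSS) and then for 30 min untreated (control), with 50 μM TPA, a membrane-permeable Zn2+ chelator, or with 30 μM ZnCl2, and 2 libraries were made per condition. The study's text names the pairs of libraries both biological and technical replicates, so p-values measure the spread between these libraries, which may be technical. All groups are the same cell line in the same saline. The authors' HMMRATAC list for each library gives open regions on hg38 with a width and a whole-number score. Lists held 18887 to 44641 regions, and no read counts were used here, so depth is unknown and the number of libraries limits the precision. Of 9 epithelial markers, LAMB3 and ITGB4 were covered by an open region at their start in all 6 libraries. KRT5, KRT6A, KRT17 and EGFR were covered in 5 and KRT14 in 4. CDH1 was covered in 3, both TPA libraries and ZnCl2 1. TP63, a basal marker, was covered in none at the 5′ end of its gene, and starts inside the gene were not read. Of 10 markers of other cell types, 8 were covered in no library, and KRT8 and CD14 were the exceptions.

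Replication-dependent histone genes are short, lack introns for the most part and are transcribed mainly in S phase. The coactivator NPAT gathers on the clusters in nuclear bodies, POU2F1 binds an octamer in H2B promoters and HINFP acts at H4 promoters. Their transcripts end in a stem-loop, bound by SLBP, in place of a poly(A) tail. H2A and H2B genes often lie head to head with a shared stretch of promoter DNA.

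The defining features were present in the sequence of nearly all of these genes. The stem-loop searched for had a 6-base stem that begins GG and a 4-base loop that begins TTT. It was found within 1500 bases downstream of the start in 62 of the 68 genes (91.2%). Of all 20033 protein-coding genes, the histone genes included, 76 had it (0.379%). The forms are shown, as hg38 DNA letters on the gene's strand, because they separate H4 from the other classes, and capitals mark the stem. Form A was found in 39 genes and form C in 9, none of them an H4 gene, while form B (9 genes) and form D (4 genes) were found in H4 genes alone. A further form was found in H2AC20. The stem-loop counted for H3C12 is the same one as that of H2AC17, whose start lies 79 bp away.
Form A: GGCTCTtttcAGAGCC
Form B: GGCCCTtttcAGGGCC
Form C: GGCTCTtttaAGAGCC
Form D: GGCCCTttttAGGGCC

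Promoter letters also followed class. In the 250 bases before the RefSeq start (GRCh38.p14, 63 of 68 genes matched), both strands were searched. The octamer ATTTGCAT was present in 77.8% of H2B and 68.8% of H2A promoters and in 0 of 11 H3, 0 of 12 H4 and 0 of 6 H1 promoters, against 1.66% of 15343 protein-coding promoters. The TATA box TATAAA was present in 66.7% of the histone promoters and 9.34% of all. A CCAAT box was present in every matched H1, H2A, H2B and H3 promoter and in 3 of 12 H4 promoters, against 34.8% of all. The H1-specific AC box AAACACA was present in 6 of 6 H1 promoters, in none of the matched promoters of the other classes and in 3.68% of all. Median GC within 250 bp of the start was 51.1% for the histone genes and 61.7% for all protein-coding genes.

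The DNA between the starts is shown for 4 head-to-head H2A and H2B pairs, read 5′ to 3′ on the plus strand of hg38 with octamers, TATA boxes and CCAAT boxes in either orientation in capitals. H2AC25 and H2BC26 (chr1:228457874-228458102) had the highest scores of any pair covered in all 6 libraries, H2BC21 and H2AC20 (chr1:149886683-149886917) shared their region with H2AC21, H2BC11 and H2AC11 (chr6:27132796-27133042) ranked higher after ZnCl2 than in control cells, and H2AC1 and H2BC1 (chr6:25726563-25726776), the testis pair, were never covered. The first of these holds CCAAT boxes but neither ATTTGCAT nor TATAAA in this window, and the others, the testis pair among them, hold all 3 motifs.
H2AC25-H2BC26: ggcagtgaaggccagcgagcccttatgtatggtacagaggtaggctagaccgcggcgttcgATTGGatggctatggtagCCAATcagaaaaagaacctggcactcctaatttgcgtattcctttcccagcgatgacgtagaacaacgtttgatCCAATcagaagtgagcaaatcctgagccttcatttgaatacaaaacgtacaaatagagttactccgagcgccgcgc
H2BC21-H2AC20: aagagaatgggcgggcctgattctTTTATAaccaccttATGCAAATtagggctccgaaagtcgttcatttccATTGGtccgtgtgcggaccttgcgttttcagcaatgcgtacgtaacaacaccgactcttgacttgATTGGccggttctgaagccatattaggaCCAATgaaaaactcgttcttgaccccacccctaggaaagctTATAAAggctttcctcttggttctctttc
H2BC11-H2AC11: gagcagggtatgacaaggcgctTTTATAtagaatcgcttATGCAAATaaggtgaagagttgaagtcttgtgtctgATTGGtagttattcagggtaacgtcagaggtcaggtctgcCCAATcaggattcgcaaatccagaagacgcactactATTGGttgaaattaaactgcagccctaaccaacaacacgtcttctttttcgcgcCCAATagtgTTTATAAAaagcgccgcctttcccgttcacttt
H2AC1-H2BC1: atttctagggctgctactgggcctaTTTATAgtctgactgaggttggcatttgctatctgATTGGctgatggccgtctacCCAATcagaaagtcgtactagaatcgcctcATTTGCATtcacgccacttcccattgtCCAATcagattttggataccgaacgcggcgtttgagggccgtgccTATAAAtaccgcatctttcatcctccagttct

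For contrast, the 120 bases before the start are shown for H1-2 and H4C6. H1-2 (chr6:26056471-26056590, minus strand, RefSeq on GRCh38.p14) is an H1 gene whose score percentile within each library's list separated the conditions. H4C6 (chr6:26240273-26240392, plus strand) is an H4 gene covered in no library. Each is read 5′ to 3′ toward the gene, and capitals mark the AC box and CCAAT boxes.
H1-2: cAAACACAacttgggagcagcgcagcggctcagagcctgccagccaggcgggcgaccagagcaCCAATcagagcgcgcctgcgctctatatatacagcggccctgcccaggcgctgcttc
H4C6: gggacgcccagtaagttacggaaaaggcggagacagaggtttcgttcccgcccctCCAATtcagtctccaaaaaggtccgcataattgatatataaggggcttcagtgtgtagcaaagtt

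Open regions covered the start of most histone genes in every library. The control libraries covered 45 and 61 of the 68 starts, the TPA libraries 50 and 55, and the ZnCl2 libraries 51 and 39. These are 57.4% to 89.7% of the histone starts, against 43.5% to 57.4% of the other protein-coding starts, and the histone share was higher in 6 of 6 libraries. The mean was 53.0 ± 11.3 starts in control cells, 52.5 ± 3.54 after TPA and 45 ± 8.49 after ZnCl2 (SD, n = 2), and the control values span those of both TPA libraries. The difference was -8.5 starts for TPA without control 1 and 7.5 without control 2, and for ZnCl2 it was -16.0 without control 1 and 0.0 without control 2. No histone start was covered in both TPA and neither control library or the reverse, where 0.25% and 0.609% of all protein-coding starts were. For ZnCl2 against control the counts were also 0 of 68 in each direction, with 0.11% and 0.125% of all starts.

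**Figure D1:**
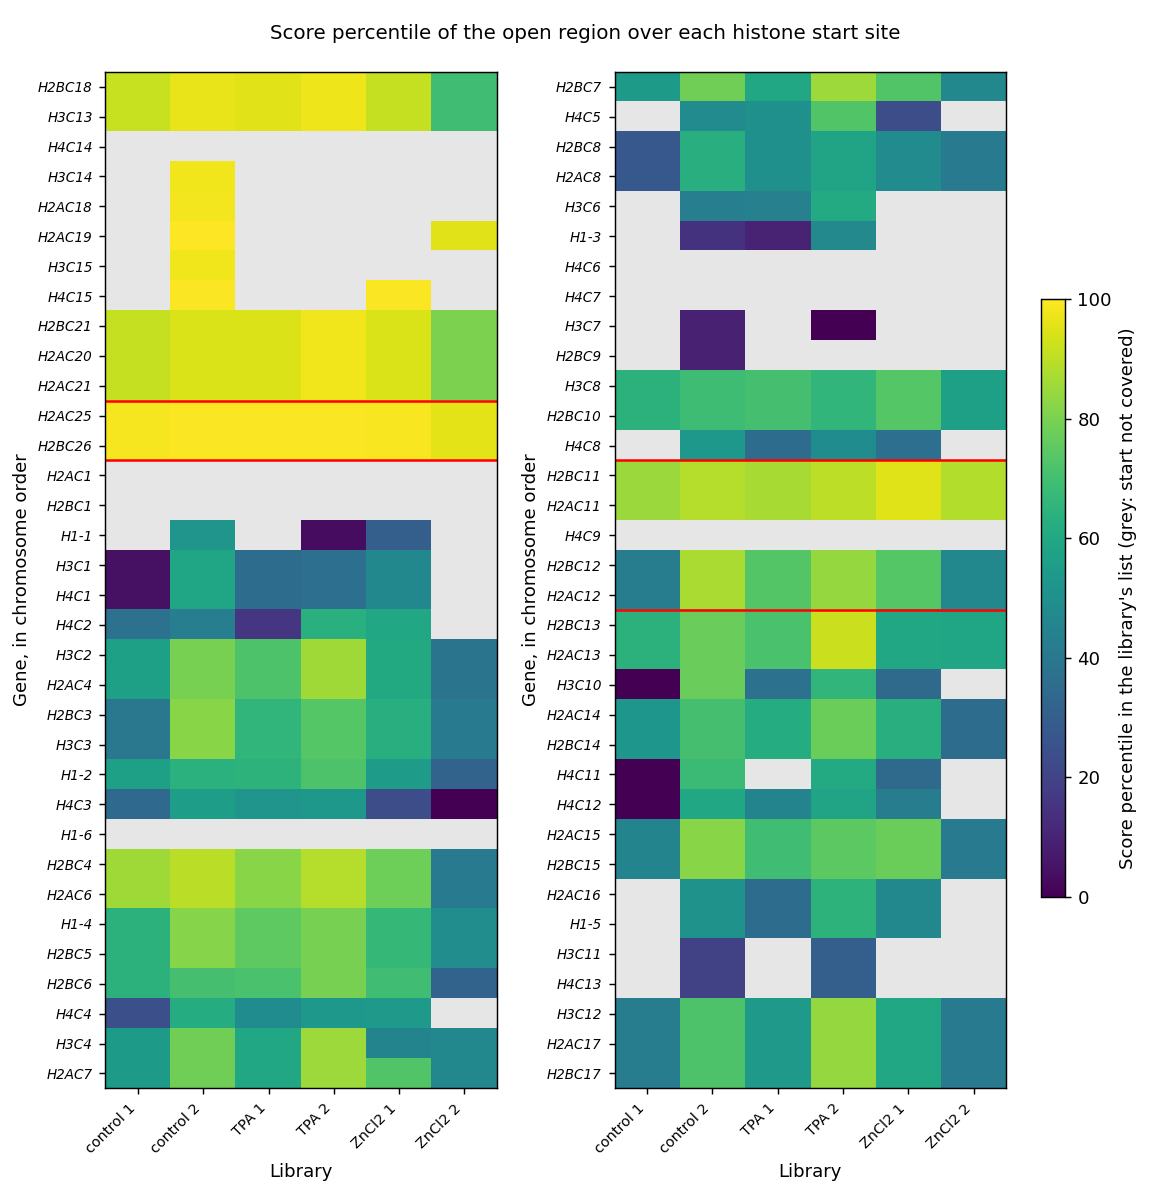
Score percentile of the open region over each start site (colour; grey where no region covered it) for the 68 histone genes, in chromosome order down both panels, in the 6 libraries; red lines part the clusters. H2A and H2B genes are coloured in nearly every row, most H4 genes have grey cells, and H2AC25 and H2BC26 stay above 95 in all 6 libraries.

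Coverage went with class. In all 6 libraries, 16 of 18 H2B and 13 of 17 H2A genes were covered, but 6 of 13 H3, 2 of 6 H1 and 1 of 14 H4 genes. The H4 gene was H4C3. The H4 class was covered less completely than the H2B class in each library, from 10 of 14 against 17 of 18 in control 2 to 1 of 14 against 16 of 18 in ZnCl2 2, the library with the shortest list. Of the 50 genes with another histone start within 2500 bp, 35 were covered in all 6 libraries. Of the 18 farther away 3 were (H1-2, H2BC6 and H4C3), and 12 of those 18 were H4 genes. For H1 and H4, most of whose genes lay farther away, class and position cannot be told apart here. Among the 50, 15 of 17 H2B, 13 of 17 H2A and 6 of 12 H3 genes were covered in all 6 libraries. This difference was not tested. Genes that share an open region are each counted in this paragraph, so the counts are not of separate measurements. Among matched promoters, 21 of 25 with the octamer and 14 of 38 without it were covered in all 6 libraries. So were 35 of 54 with a CCAAT box and 0 of 9 without one. These splits follow class. The octamer was found only in H2A and H2B promoters, and the 9 promoters without a CCAAT box were all of H4 genes. The 3 matched H4 genes with a CCAAT box were not covered in all 6 libraries either. H2BC6 counts as a gene with the octamer, but its coverage was read at an annotated start 11702 bp from its RefSeq start. The part of the motifs was not tested.

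**Figure D2:**
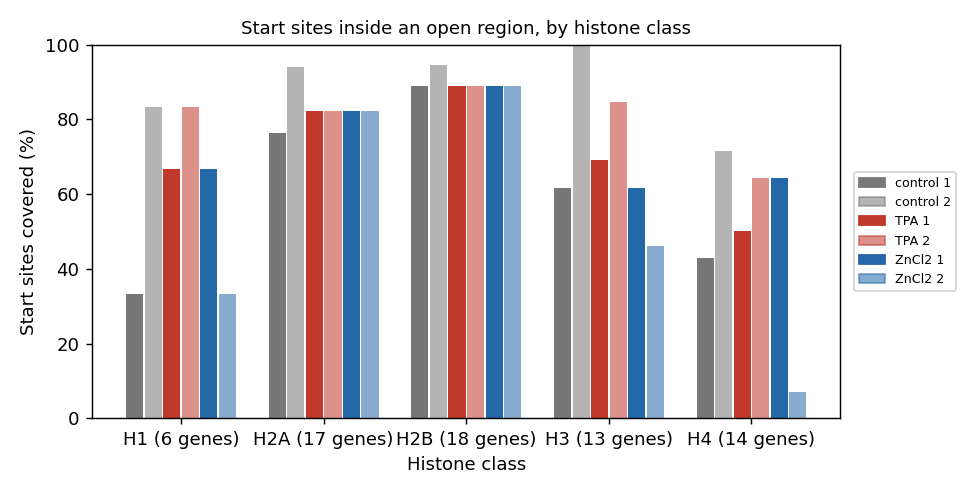
Share of start sites inside an open region (vertical axis, percent) for each histone class in the 6 libraries; solid bars are replicate 1 and pale bars replicate 2. H2A and H2B bars are high in all 6 libraries, whereas for H4 ZnCl2 2 covered 1 of 14 starts.

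The genes covered in no library were H1-6, H2AC1 and H2BC1, which encode testis histones, and H4C6, H4C7, H4C9 and H4C14, which encode H4. A further 23 genes were covered in 1 to 5 libraries. H1-1, H1-3 and H3C6 were covered in 3 libraries each, H4C5, H4C8, H4C11, H2AC16 and H1-5 in 4, and H3C1, H4C1, H4C2, H4C4, H4C12 and H3C10 in 5. H3C7, H3C11 and H4C13 were covered in control 2 and TPA 2, and H2BC9 in control 2 alone. The genes covered in 5 libraries were all missing from ZnCl2 2.

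Repeated sequence marked a further group. The arms of an inverted duplication at 1q21 hold H4C14, H3C14, H2AC18, H2AC19, H3C15 and H4C15, and every 75-base piece within 500 bp of their starts occurs again in hg38. Across this stretch (chr1:149832657-149861159), control 2 had 9 regions that covered 5 of the 6 starts, ZnCl2 1 and ZnCl2 2 had 6 regions each over 1 start, and control 1, TPA 1 and TPA 2 had 2 regions each over none. The regions over these starts were 300 to 1320 bp wide and had score percentiles, the percent of regions in the same list with a lower score, of 95.3 to 99.7. H4C15 stood at 99.5 in control 2 and 99.4 in ZnCl2 1, and H2AC19 at 99.7 in control 2 and 95.3 in ZnCl2 2. Reads of identical copies cannot be told apart, so these calls are uncertain. Leaving out the 19 genes with over 10% of pieces repeated, 32, 43, 38, 42, 37 and 27 of 49 starts were covered, in the order given for all 68.

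Where histone starts were open, the regions were wide at the median. Median width was 2990 and 4020 bp in control cells, 3275 and 3220 bp after TPA and 2710 and 3840 bp after ZnCl2. Other protein-coding starts lay in regions of 1690, 2760, 1830, 1890, 2140 and 2600 bp at the median, so histone regions were 1.27 to 1.79 times as wide, wider in 6 of 6 libraries. A region shared by several genes enters these medians once per gene. For genes with the nearest histone start over 2500 bp away, control medians were 2120 and 2200 bp. Such genes had 2040 and 2290 bp after TPA and 1900 and 2150 bp after ZnCl2. Their values lay below those of other starts in control 2, ZnCl2 1 and ZnCl2 2, and above them in control 1, TPA 1 and TPA 2. Over all covered histone genes, regions reached a median of 1344 to 1795 bp upstream of the start and 1408 to 1950 bp downstream. With a median gene length of 502.5 bp, against 27626 bp for other protein-coding genes, the whole gene lay inside its region for 74.4% to 80.0% of covered histone genes and for 0.722% to 2.84% of the others.

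Many regions spanned several histone genes. The control libraries had 17 and 20 regions that bridged at least 2 histone starts, the TPA libraries 18 and 19, and the ZnCl2 libraries 18 and 16. These held 37, 44, 39, 41, 38 and 35 histone genes. The mean was 40.5 ± 4.95 genes in control cells, 40.0 ± 1.41 after TPA and 36.5 ± 2.12 after ZnCl2 (SD, n = 2). Relative to the starts covered, 72.1% to 89.7% of histone genes shared their region with another histone gene, while 28.4% to 31% of other covered protein-coding genes shared theirs with any protein-coding gene.

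The bridges were largely the same from library to library. Of 22 sets of bridged genes, 14 were bridged in all 6 libraries, 3 in 5, 1 in 4, 1 in 2 and 3 in 1. No region covered more than 3 histone starts. Of the 13 head-to-head pairs with starts under 1000 bp apart, 11 lay in 1 region in all 6 libraries (84.6%), against 592 of 811 other protein-coding pairs of that arrangement (73.0%). The 2 exceptions were the testis pair and H3C7 with H2BC9, whose starts are 979 bp apart and which a single region joined in control 2.

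Regions over 3 starts reached 7310 bp. H3C12, H2AC17 and H2BC17 shared regions of 6250 and 6660 bp in control cells, 6580 and 6410 bp after TPA and 4110 and 7310 bp after ZnCl2. The annotated start of H3C12 lies 79 bp from that of H2AC17 and was not matched to RefSeq. Its coverage is therefore not separate from that of H2AC17. H2BC21, H2AC20 and H2AC21 shared regions of 4970 and 5470 bp, 4640 and 4610 bp, and 4940 and 6430 bp, which also covered the start of BOLA1, a mitochondrial protein gene, in all 6 libraries. H3C4, H2AC7 and H2BC7 were bridged in 5 libraries by regions of 3900 to 5800 bp, and in ZnCl2 1 H3C4 had its own region of 2730 bp and the pair another of 2250 bp. H2BC13, H2AC13 and H3C10 were joined in control 2 alone, in 5740 bp. In the other libraries the H2BC13 and H2AC13 pair lay in a region of 1520 to 2940 bp, and H3C10 had its own, save in ZnCl2 2, where it was not covered.

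**Figure D3:**
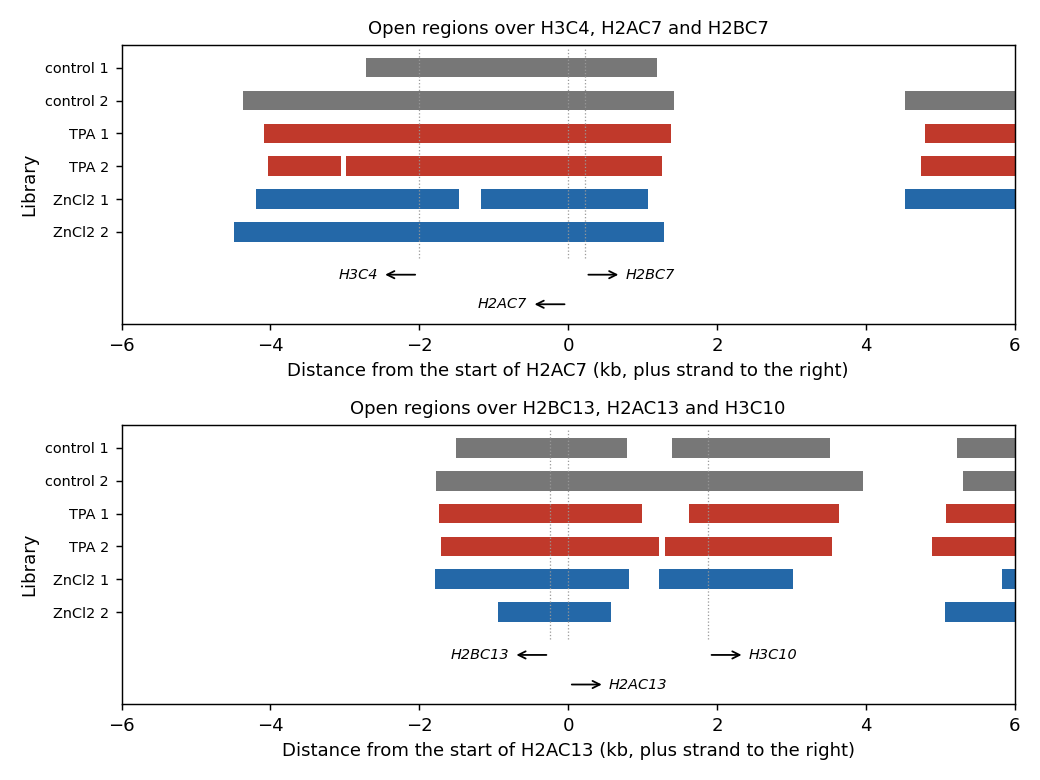
Open regions (bars) in the 6 libraries around 2 groups of histone genes, by distance in kb from the start of H2AC7 (top) and of H2AC13 (bottom); dotted lines are start sites and arrows show the direction of transcription. The bar over H3C4, H2AC7 and H2BC7 is unbroken across their starts in 5 libraries and split in ZnCl2 1, and control 2 alone has a bar from H2BC13 to H3C10.

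The remaining bridges in all 6 libraries joined H2BC18 with H3C13, H2AC25 with H2BC26, H3C2 with H2AC4, H2BC3 with H3C3, H2BC4 with H2AC6, H1-4 with H2BC5, H2BC8 with H2AC8, H3C8 with H2BC10, H2BC11 with H2AC11, H2BC12 with H2AC12, H2AC14 with H2BC14 and H2AC15 with H2BC15. H4 genes were seldom bridged. H4C1 shared a region with H3C1 in 5 libraries and H4C13 with H3C11 in 2, and no other H4 gene was bridged. Linker genes H1-4 and H1-5 shared regions with H2BC5 and with H2AC16, in 6 and 4 libraries.

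The clusters, here genes with starts under 500 kb apart, differed in how much of their length was open. The chromosome 6 cluster of 5 genes at 27.1 Mb (chr6:27125897-27147562) was open over 27.2% to 38.4% of its length, and the 16-gene cluster at 27.8 Mb (chr6:27807479-27893891) over 14.2% to 33.6%. The 34-gene cluster (chr6:25723397-26285638) was open over 6.89% to 13.1%, the 11-gene 1q21 cluster (chr1:149782689-149887965) over 7.82% to 18.7%, and the stretch around H2AC25 and H2BC26 (chr1:228434777-228463104) over 9.14% to 11.5%. For each of these clusters the span follows the annotated gene ends. Within them lie 8 other protein-coding starts, of which 2 were covered in all 6 libraries, BOLA1 and ENSG00000282988, both inside histone bridges. The solute carriers SLC17A1, SLC17A2, SLC17A3 and SLC17A4 and the iron regulator HFE were covered in none, and TRIM38 in 4 libraries.

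Scores were read as percentiles, the percent of regions in the library's own list with a lower score. Median percentiles over covered histone starts were 54.7 and 77.2 in control cells, 65.9 and 77.4 after TPA and 62.9 and 46.6 after ZnCl2. Other covered protein-coding starts had medians of 69.2, 80.6, 71.3, 75.6, 77.4 and 66.6, above the histone median in 5 libraries and below it in TPA 2. The group means were 65.9 ± 15.9 in control cells, 71.6 ± 8.13 after TPA and 54.7 ± 11.5 after ZnCl2 (SD, n = 2), and the differences from the control, 5.72 and -11.2 points, were smaller than the control SD. Without control 1 the TPA difference was -5.53 points and without control 2 it was 17.0, and the ZnCl2 difference was -22.4 and 0.0791 points.

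H2AC25 and H2BC26 had the highest percentiles among genes covered in all 6 libraries, 98.8 and 99.5 in control cells, 99.3 and 99.5 after TPA and 99.1 and 95.9 after ZnCl2. H4C15, from the duplicated arms, had a higher median over its 2 libraries. The lowest medians were those of H3C7 (9.29 and 0 in its 2 libraries), H2BC9 (9.29 in its 1) and H1-3 (14.6 in control 2, 10.1 and 47.0 after TPA). Among genes in all 6 libraries the H4 gene H4C3 was lowest.

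TPA and control libraries were compared at the 44 histone genes covered in all 4. Percentiles of both TPA libraries lay above both controls for 5 genes and below for 0, where 11.8% and 21.9% of 8918 protein-coding starts did so. The 5 higher genes are 11.4% of 44, near the background. They lie in 3 regions, those of H1-2, of H2BC6 and of the H2BC21, H2AC20 and H2AC21 trio. H1-2, a linker histone gene, had percentiles of 56.8 and 63.9 in control cells and 64.7 and 72.1 after TPA, a difference of 8.05 points. H2BC6 had 64.4 and 70.6 in control cells and 71.3 and 79.7 after TPA, at an annotated start 11702 bp from its RefSeq start. The trio had 91.3 and 94.5 in control cells and 94.7 and 97.9 after TPA. With 2 libraries against 2, a two-sided exact permutation test cannot give a p below 0.333, which is the p of each of these genes. The 5 higher genes became 41 without control 2 and 24 without TPA 1, and the 0 lower genes became 19 without control 1 and 3 without TPA 2.

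ZnCl2 and control libraries were compared at 38 histone genes. Both ZnCl2 percentiles lay below both controls for 9 genes (23.7%) and above for 0, where 13.6% and 2.74% of 8093 protein-coding starts did so. The 9 genes lie in 6 groups that share no region. H4C3 had 34.2 and 55.8 in control cells and 23.6 and 0 after ZnCl2, a difference of -33.2 points. Its 0 stands for a score of 30 in ZnCl2 2, the lowest of that list, which 926 regions hold. H2BC4 and H2AC6 had 85.6 and 89.5 in control cells and 78.0 and 41.2 after ZnCl2. H3C4, H1-2, H2BC18, H3C13, H2BC13 and H2AC13 differed by -11.5 to -20.7 points. In ZnCl2 1, H3C4 lay in a region (45.1) split from that of H2AC7 and H2BC7 (73.0), which share its region elsewhere. H2AC7 and H2BC7 differed from control by -6.73 points, with overlap. For H1-2 the ZnCl2 values were 55.0 and 32.0, so its 6 values fell in the order ZnCl2, control, TPA without overlap, as for 1 of 38 histone genes and 1.42% of 7880 starts. By rank among the promoters covered in all 6 libraries, its ZnCl2 values (4.85 and 14.7) overlapped those of the control (26.5 and 6.62). The 9 lower genes became 34 without control 1 and 30 without ZnCl2 1, and the 0 higher genes became 8 without control 2 and 5 without ZnCl2 2.

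In limma on percentiles of the 7880 protein-coding starts covered in all 6 libraries, 0 genes passed an adjusted p of 0.05 (0.0%) for TPA against control, and likewise for ZnCl2 against control and for TPA against ZnCl2, so no histone gene did. Without adjustment, 472, 96 and 585 starts had limma p under 0.05. Among the 38 histone genes these were 0 for TPA against control and 1 in each of the other comparisons, H4C3 in both. These counts depended on the scale. For TPA against ZnCl2, limma on ranks among promoters, the scale defined in the next paragraph, passed 664 starts at an adjusted p of 0.05. None of these was a histone gene. Before adjustment, 16 of the 38 histone genes and 2249 of the 7880 starts had limma p under 0.05 on that scale. On log2 scores limma passed 1262 starts. Before adjustment, 24 of the 38 histone genes and 2426 of the 7880 starts had limma p under 0.05 there. On percentiles, the difference of H4C3 between TPA and ZnCl2 was 40.8 ± 11.4 points (SE), with a limma adjusted p of 0.606, and that between ZnCl2 and control was -33.2 ± 11.4 points, with a limma adjusted p of 1.

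List length differed between libraries, so the 7880 shared starts were also ranked among themselves. On this scale, the rank among promoters, the 38 histone genes covered in all 6 libraries had medians of 26.5 and 32.6 in control cells, 39.5 and 55.4 after TPA and 21.3 and 25.5 after ZnCl2, where the other 7842 starts had medians of 48.7 to 49.6 in each library. The TPA values lay above both control values and the ZnCl2 values below them. These 38 genes were kept because they were covered everywhere, so they do not stand for the 68. They lie in 19 groups that share regions, and the genes of a group are not separate measurements.

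**Figure D4:**
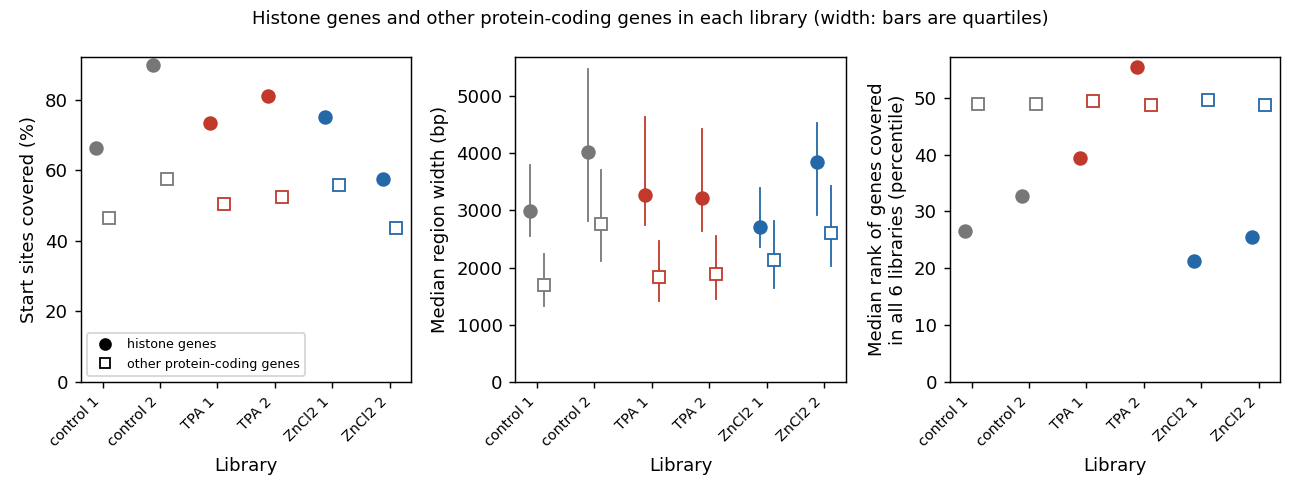
Share of start sites covered (left), median region width with quartiles as bars (middle) and median rank among promoters covered in all 6 libraries (right) for histone genes (filled circles) and other protein-coding genes (open squares) in each library. Histone genes are covered more often and in wider regions in all 6 libraries, and their median rank is highest in TPA 2 (55.4) and lowest in ZnCl2 1 (21.3).

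Ranks among promoters were higher in both TPA than in both control libraries for 31 of 44 histone genes (70.5%) and lower for 0, where 30.3% and 22.4% of 8918 protein-coding starts were. Counted once per group of genes that share a region, 17 of 23 were higher and 0 lower. Starts covered in the control and TPA libraries but not in all 6 libraries were placed on the scale of the 7880. Among them, H3C1 and H4C1 counted as higher at 7.70 and 4.87 after TPA against 0.495 and 3.95 in control cells. Against control, ZnCl2 ranks were lower for 11 of 38 (28.9%) and higher for 2, where 20.1% and 21.8% of starts were. H3C2 and H2AC4, which encode H3 and H2A, ranked at 26.5 and 30.5 in control cells, 40.8 and 59.3 after TPA and 8.79 and 19.1 after ZnCl2. H1-4 and H2BC5 ranked at 35.3 and 34.8, 45.2 and 46.5, and 14.5 and 27.7. In both of these regions TPA libraries were highest and ZnCl2 libraries lowest, with no overlap, as for 9 of 38 histone genes (23.7%) and 5.28% of 7880 starts.

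Promoter GC moved with these ranks. Over the 7842 other starts, the rank difference of TPA from control correlated with GC at a Pearson r of -0.208 and a Spearman rho of -0.212, a correlation across genes that share libraries. Of the 38 histone genes, 37 lay below the lower quartile of GC of these starts (60.7%). Other starts below that quartile, 1934 in number, had a median difference of 3.40 points, and the 38 histone genes 11.1 points. For ZnCl2 against control r was 0.127 and rho 0.123, with medians of -0.965 and -6.08 points. The part of GC in these differences was not tested.

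The treatments were also compared with each other, a comparison added after the data were seen. Percentiles were higher in both TPA than in both ZnCl2 libraries for 23 of 38 histone genes (60.5%) and lower for 0, where 21.8% and 17.7% of 8120 protein-coding starts were. Counted once per group that shares a region, 13 of 19 were higher. The 23 became 36 without ZnCl2 1, and the 0 lower genes became 9 without ZnCl2 2 and 2 without TPA 2. The largest difference was that of H4C3, whose percentiles of 52.0 and 53.2 after TPA stood against 23.6 and 0 after ZnCl2, the 0 being the lowest score of the ZnCl2 2 list. H3C2 and H2AC4 had 72.2 and 85.9 after TPA and 60.8 and 38.5 after ZnCl2. By rank among promoters, 26 of 38 were higher after TPA and 2 lower, against 30.6% and 28.8% of starts.

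The 2 lower genes were H2BC11 and H2AC11, a head-to-head pair at 27.1 Mb on chromosome 6. They ranked at 66.6 and 56.1 in control cells, 67.2 and 69.6 after TPA and 84.5 and 79.7 after ZnCl2. Both ZnCl2 libraries stood above the other 4, and these were also the 2 histone genes that ranked higher after ZnCl2 than in control cells. On score percentiles the groups overlapped, at 84.9 and 89.0 in control cells, 86.9 and 90.0 after TPA and 95.3 and 88.6 after ZnCl2. Their neighbours H2BC12 and H2AC12, some 14 kb away, ranked at 14.0 and 50.1, 42.4 and 55.4, and 25.8 and 25.5, and the ZnCl2 values lay inside the control range.

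On log2 scores, an alternative scale, after quantile normalization, limma passed 7 of the 38 histone genes (18.4%) as higher after TPA than after ZnCl2 at an adjusted p of 0.05, where 7.22% of 7880 starts passed in that direction. They were H4C3 (log2 difference 0.61 ± 0.15 (SE), adjusted p = 0.0123), H2BC18 and H3C13 (0.58 ± 0.15, adjusted p = 0.0172), H3C2 and H2AC4 (0.56 ± 0.15, adjusted p = 0.0202), and H2BC4 and H2AC6 (0.49 ± 0.15, adjusted p = 0.034). No histone gene passed as lower, where 8.79% of starts did, and none passed for TPA or for ZnCl2 against control, where 5.95% and 0.127% of starts did in either direction. The genes of each pair named here share a region, so they are not separate measurements. H2BC18 and H3C13 lie in repeated sequence, with 42.4% and 59.7% of pieces repeated.

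**Figure D5:**
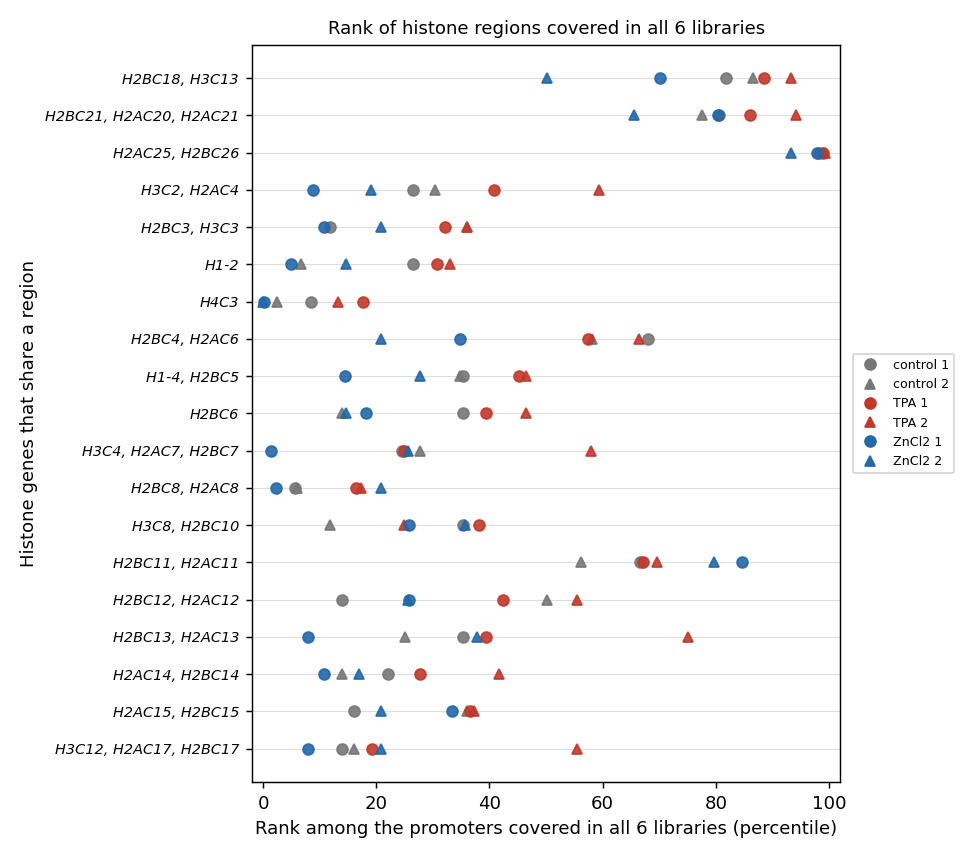
Rank among the promoters covered in all 6 libraries (horizontal axis, percentile) for the 19 groups of histone genes that share regions; colours are conditions, circles replicate 1 and triangles replicate 2, and for H3C4, H2AC7 and H2BC7 the ranks of H3C4 are drawn. TPA points lie to the right of ZnCl2 points in most rows, and H2BC11 with H2AC11 is the row where both ZnCl2 points (84.5 and 79.7) lie right of the other 4.

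Widths were compared in the same way. Both TPA regions were wider than both control regions for 4 of 44 histone genes (9.09%) and narrower for 4, where 1.83% and 16.5% of 8918 starts were. The wider genes were H2BC3 and H3C3, at 3320 and 4050 bp in control cells and 4860 and 4840 bp after TPA, and H2AC14 and H2BC14, at 2550 and 2820 bp and 3190 and 3070 bp. The narrower genes were the H2BC21, H2AC20 and H2AC21 trio and H4C4, at 1630 and 1980 bp in control cells and 1460 and 1360 bp after TPA. With ZnCl2, 1 of 38 was wider and 2 narrower, against 10.7% and 2.61% of 8093 starts. H4C3 was the wider gene, at 1770 and 1520 bp in control cells and 2200 and 1820 bp. H3C8 and H2BC10 were narrower, at 5710 and 5810 bp in control cells and 2910 and 3940 bp after ZnCl2. Without control 2, 35 genes were wider after TPA and 10 after ZnCl2, and without control 1, 42 were narrower after TPA and 29 after ZnCl2. Without ZnCl2 1, 9 were wider and 4 narrower, without ZnCl2 2, 28 were narrower, and without TPA 2, 9 were narrower after TPA.

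Genes that act on histone genes were read from 3 lists. Of 20 genes for histone transcription and pre-mRNA processing, 15 were covered in all 6 libraries and ERI1, an exonuclease, in none. SLBP, which binds the stem-loop, had percentiles of 87.7 and 91.8 in control cells, 95.2 and 91.4 after TPA and 84.3 and 89.0 after ZnCl2. NPAT had percentiles of 96.7 to 98.1 in 5 libraries and was not covered in ZnCl2 2. HINFP had 94.2 and 94.0 in control cells, 97.0 and 97.5 after TPA and 96.1 and 95.8 after ZnCl2, above the control with both treatments. Of the genes of this list covered in both groups, 2 of 18 were higher (HINFP and CCNE2) and 1 lower (CCNE1) after TPA, where 11.8% of all starts were higher and 21.9% lower. After ZnCl2, 1 of 15 was higher (HINFP) and 1 lower (POU2F1), where 2.74% and 13.6% of starts were.

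Of 9 histone chaperones, 7 were covered in all 6 libraries. ASF1B, which hands over H3 and H4, stayed between 98.5 and 99.2. Of 7 tested chaperones, TPA percentiles were higher for 0 and lower for 1, ASF1A, against the same 11.8% and 21.9% of starts, and ZnCl2 percentiles for 0 in either direction, against 2.74% and 13.6%. Among replication-independent histone genes, H3-3A, H2AZ1, H2AZ2, H2AX and H2AJ were covered in all 6 libraries. After TPA 1 of 6 was higher (H2AZ2) and 0 lower, against 11.8% and 21.9% of starts, and after ZnCl2 0 of 5 were higher and 2 lower (H3-3A and H2AX), against 2.74% and 13.6%.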

How the data were processed

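Members and lists were chosen with earlier results of these data known. The authors checked reads with FastQC 0.11.8, trimmed with BBDuk, mapped to hg38 with HISAT2 2.1.0, indexed with SAMtools 1.8 and called open regions per library with HMMRATAC. The deposited lists give a whole-number score of at least 30 per region. Its kind and the caller's version are not given in the sources used here. Reads were not analysed here.

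Regions on other contigs than the assembled chromosomes (72 to 203 per list) were dropped. The region covering the 5′ end of each GENCODE gene gave its width and percentile. Groups were compared by non-overlap, by two-sided exact permutation tests and by limma 3.58.1 with Benjamini-Hochberg adjustment over all starts covered in 6 libraries, with no covariates. Named genes were the 3 largest differences in each direction, the genes in widest or constant bridges, the genes covered in fewer than 6 libraries, the testis genes, the genes at the extremes of rank and the genes with least unique sequence. The procedures were tested on simulated data. The alternatives were fewer regions per list, other contigs, other ways of assigning regions and ranks, leaving out each library, and a replicate block. The work used R 4.3.3 and Python 3.11.15 with pysam 0.24.0, pandas 2.3.3, NumPy 2.4.6, Matplotlib 3.10.9 and SciPy 1.17.1.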

Additional observations from a re-analysis of the deposited data

Results flagged for a closer look

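For 10 histone genes, both TPA libraries lay above and both ZnCl2 libraries below both control libraries, opposite directions against the same controls. That difference between the treatments was not tested by this criterion. On score percentiles it was met by H1-2, with a TPA mean 24.8 points above the ZnCl2 mean, which is 1 of 38 histone genes, where 1.42% of 7880 protein-coding starts met it. On rank among promoters it was met by 9 of 38 (23.7%), where 5.28% of starts met it, namely H3C2 and H2AC4 (36.1 points), H2BC18 and H3C13 (30.7 points), H1-4 and H2BC5 (24.8 points), H4C3 (15.4 points), and H2AC25 and H2BC26 (3.49 points). These 10 genes lie in 6 groups that share no region.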

How the results depend on the processing

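Repeats, 1 gene per region and TPA against ZnCl2 were chosen after seeing the data. Of 322 combinations of 21 results with an alternative, 272 kept their value within the spread between libraries or within 1.5 times the count. Higher TPA percentiles (5 genes) became 31 by rank among promoters, 23 with the replicate block, and 3 with equal region numbers, without repeated sequence or with 1 gene per region. Genes lower with TPA (0) became 2 with the block. The 4 wider genes became 2 in the upper 50% by score, without repeats or with 1 gene per region, and the 4 narrower genes became 8 with the block and 2 in the latter pair. For ZnCl2, the 0 higher genes became 2 with equal numbers or by rank among promoters, the 9 lower genes 4 in the upper 50% and 5 without repeats, the 1 wider gene 0 with equal numbers or the upper 50% and 3 with the block, and the 2 narrower genes 20 with the block and 1 with 1 gene per region. For TPA against ZnCl2, the 23 higher genes became 9 in the upper 50%, 15 without repeats and 13 with 1 gene per region, the 0 lower genes 4 with equal numbers and 2 by rank among promoters, and the 0 limma calls 7 on log2 scores. The median width difference for TPA turned from -257.5 to 262.5 bp with equal numbers. In the upper 50%, the difference in bridged genes turned from -0.5 to 4.0 for TPA and went from -4.0 to -9.5 for ZnCl2, and the ZnCl2 percentile difference turned from -11.2 to 10.5 points. The cause of these changes was not tested.

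Leaving out each library gave, for TPA against control, differences of -8.5 to 7.5 covered starts, -5.53 to 17.0 percentile points, -772.5 to 257.5 bp and -4.0 to 3.0 bridged genes, and 7 to 41 higher, 0 to 19 lower, 5 to 35 wider and 4 to 42 narrower genes. For ZnCl2 these were -16.0 to 0 starts, -22.4 to 0.0791 points, -795.0 to 335.0 bp and -7.5 to -0.5 genes, and 0 to 8, 9 to 34, 1 to 10 and 2 to 29 genes. For TPA against ZnCl2 they were 23 to 36 higher and 0 to 9 lower. A group with 1 library left is assumed to vary like the others. Deviations of same-numbered libraries correlated at 0.173, -0.458 and -0.14, so the numbers were not taken to pair libraries. Depth is unknown and 2 libraries per condition limit every comparison.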
